A study of Mus musculus with 3 samples.

Results

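Myeloid lineage transcription factors are the DNA-binding proteins that turn blood progenitors into granulocytes, monocytes and their relatives. The 8 genes described here are *Cebpa*, *Cebpd*, *Cebpe*, *Gfi1*, *Spi1*, *Irf8*, *Runx1* and *Myb*, taken by symbol from a table of 26970 genes measured by RNA sequencing in mouse mandibular condyles, the joint heads of the lower jaw. All 8 were found in the table, once each. The mice were on a C57BL/6 background, and they were wild type (WT, *Dspp* +/+), heterozygous (*Dspp*+/-) or homozygous (*Dspp*-/-) for a global knockout of *Dspp*, a gene of an extracellular matrix protein of dentin and bone. In work on osteoarthritis of the jaw joint, the sequencing asked how the loss of 1 copy of *Dspp* affects the formation of osteoblasts and osteoclasts. Each genotype has 1 column of values, although the labels speak of triplicates. The study's methods state an age of 4 months and the pooling of tissue from 3 animals for the WT and *Dspp*+/- libraries. For *Dspp*-/- the age was taken as 4 months too, one of the ages at which the study kept 3 mice per group, and the number pooled is not given. The dissected pieces held cartilage and subchondral bone together, and so could hold bone marrow as well.

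The factors work in sequence and in opposition. *Runx1* and *Myb* serve early progenitors, *Cebpa* and *Spi1* commit them to the myeloid branch, *Gfi1* and *Cebpe* drive neutrophil formation, and *Irf8* directs cells to monocytes and dendritic cells. *Cebpd* is a C/EBP gene that inflammatory signals induce in many cell types. Several of these genes are also used outside the myeloid branch, as *Spi1* is needed by osteoclasts and their precursors, *Runx1* is active in skeletal progenitors and *Cebpa* in fat cells.

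With 1 library per genotype there is no replicate error, no test between genotypes was possible, and every difference given is one between single libraries. Values are FPKM, which is fragments counted per length of gene and depth of library, so levels of different genes can be set side by side with 1 limit. The length is that of all annotated exons of a gene merged, which can be longer than the transcripts present. Orders of different genes carry this limit, which the counting intervals below do not cover. Multiplying FPKM by exon length gave back whole fragments, and a depth of 20241576 fragments for WT, 23613621 for *Dspp*+/- and 22253158 for *Dspp*-/-. The intervals given are exact 95% Clopper-Pearson intervals from these fragments, which cover counting error only and not the spread between mice. Ratios on the log2 scale are log2 ratios of FPKM + 1, which understate the change of low genes, and 13026 genes, whose levels averaged 1 FPKM or more, were compared. All 8 factors passed this filter. Because *Dspp* was not analysed here, the labels could not be checked against it. *Xist*, the RNA of the inactive X chromosome in females, had 0.00551 FPKM in WT against 28.5 in *Dspp*+/- and 26.5 in *Dspp*-/-, and *Ddx3y*, a Y-linked gene, had 22.5, 11.1 and 15.1, so that the sex of the pooled animals and genotype cannot be told apart. The mitochondrial share of all FPKM was 25% for WT, 36.9% for *Dspp*+/- and 37.3% for *Dspp*-/-.

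The 8 factors did not move as a group. *Cebpe*, *Myb* and *Irf8* were higher in both mutant libraries than in WT, *Cebpd* was lower in both, and *Cebpa*, *Spi1* and *Runx1* stayed within 1.2-fold of WT in both. *Gfi1* was higher than WT in *Dspp*+/- only. These directions are on FPKM as deposited, and scaling to genes of white blood cells, given further on, turned those of *Irf8* in both mutant libraries and of *Gfi1* in *Dspp*+/-. On that scale *Cebpa*, *Spi1* and *Runx1* stood between -1.15 and -1.41 in log2 ratio, where the median of all genes compared was -1.08 in *Dspp*+/- and -1.10 in *Dspp*-/-. The levels in each library are given for each factor below and drawn in the plot of FPKM by library.

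**Figure D1:**
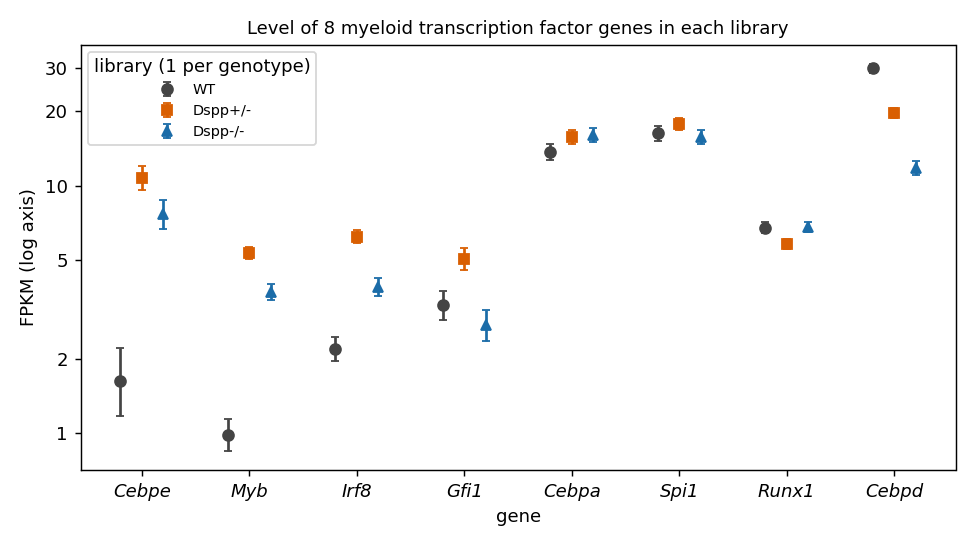
FPKM (log axis) of the 8 factors in the WT, Dspp+/- and Dspp-/- libraries, 1 point per library, with bars for the 95% counting interval. Cebpe, Myb and Irf8 sit lowest in WT and highest in Dspp+/-, while Cebpd is highest in WT at 29.8 FPKM and lowest in Dspp-/- at 11.8.

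*Cebpe* encodes C/EBP epsilon, which granulocyte precursors need to make their secondary granules. It had 1.63 FPKM in WT, from 41 fragments, 10.7 FPKM in *Dspp*+/- from 315 fragments and 7.68 FPKM in *Dspp*-/- from 212 fragments. The fold to WT was 6.59 (4.75 to 9.36) for *Dspp*+/- and 4.70 (3.35 to 6.74) for *Dspp*-/-, the largest of the 8 factors in each mutant library. Both intervals overlap those of *Myb*, 4.61 to 6.37 and 3.20 to 4.47, so this rank is within counting error. In bulk tissue, more cells of a type and more RNA per cell cannot be told apart, here or for any gene below. Among all genes compared, *Cebpe* stood at percentile 13.8 of level in WT and at percentile 61.0 in *Dspp*-/-. The gene (ENSMUSG00000052435) lies on chromosome 14 from 54947817 to 54949631 on the minus strand of the authors' table.

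*Myb*, the proto-oncogene of dividing blood progenitors, which is switched off as they mature, had 0.990 FPKM in WT against 5.35 in *Dspp*+/- and 3.74 in *Dspp*-/-. These values rest on 179, 1129 and 743 fragments. Its fold to WT was 5.41 (4.61 to 6.37) for *Dspp*+/- and 3.78 (3.20 to 4.47) for *Dspp*-/-. *Myb* was the lowest of the 8 factors in WT, and *Gfi1* took that place in both mutant libraries. It is ENSMUSG00000019982, on the minus strand of chromosome 10 from 21000834 to 21036883. Of its exon length, 6.26% overlaps *Gm26577* on the other strand, a gene listed at 0 in WT, 0.116 FPKM in *Dspp*+/- and 0.103 in *Dspp*-/-.

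*Irf8* encodes the interferon regulatory factor that monocytes and dendritic cells depend on. It had 2.20 FPKM in WT against 6.23 in *Dspp*+/- and 3.90 in *Dspp*-/-, from 314, 1038 and 613 fragments. The fold to WT was 2.83 (2.50 to 3.23) for *Dspp*+/- and 1.78 (1.55 to 2.04) for *Dspp*-/-. *Irf8* was thus past 2-fold in 1 of the mutant libraries, and the intervals of the folds do not overlap. With housekeeping genes as the scale its log2 ratio in *Dspp*+/- was 0.97, just under 2-fold. It is listed as ENSMUSG00000041515 on the plus strand of chromosome 8, from 121463097 to 121483433.

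*Gfi1*, a zinc-finger repressor that favours neutrophils over monocytes, had 3.30 FPKM in WT against 5.08 in *Dspp*+/- and 2.74 in *Dspp*-/-. Against WT the fold was 1.54 (1.3 to 1.83) for *Dspp*+/- and 0.829 (0.679 to 1.01) for the *Dspp*-/- library. The second interval contains 1, so the level in *Dspp*-/- could not be told from that in WT at this depth. Its place (ENSMUSG00000029275) is the minus strand of chromosome 5 from 107864523 to 107873902. Between the mutant libraries *Gfi1* differed most of the 8 factors in fold, with 0.539 (0.451 to 0.642) in *Dspp*-/- against *Dspp*+/-. This interval overlaps those of *Cebpd*, 0.556 to 0.651, and *Irf8*, 0.566 to 0.693.

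*Cebpa*, the C/EBP gene that opens the granulocyte and monocyte path, had 13.7 FPKM in WT against 15.8 in *Dspp*+/- and 16.1 in *Dspp*-/-. Its folds to WT were 1.15 (1.04 to 1.27) and 1.17 (1.06 to 1.29), just outside counting error. *Spi1*, which encodes PU.1, had 16.3 FPKM in WT against 17.8 in *Dspp*+/- and 15.7 in *Dspp*-/-. Both intervals of its fold contain 1, being 0.997 to 1.19 in *Dspp*+/- and 0.878 to 1.06 in *Dspp*-/-. *Runx1*, the DNA-binding subunit of core binding factor, had 6.79 FPKM in WT against 5.82 in *Dspp*+/- and 6.79 in *Dspp*-/-. It was slightly lower in *Dspp*+/-, with a fold of 0.857 (0.800 to 0.918), and its fold in *Dspp*-/- was 1.00 (0.936 to 1.07). The sign of such small differences depended on the scaling. With housekeeping genes as the scale, the log2 ratio of *Cebpa* was -0.042 in *Dspp*+/- and -0.0068 in *Dspp*-/-, that of *Spi1* was -0.11 in *Dspp*+/-, and that of *Runx1* was -0.20 in *Dspp*-/-. Median-ratio scaling also turned *Runx1* negative in *Dspp*-/-, and leaving mitochondrial genes out of the scale turned *Spi1* there to 0.051. In the authors' table *Cebpa* (ENSMUSG00000034957) lies on the plus strand of chromosome 7 from 34818718 to 34821353, *Spi1* (ENSMUSG00000002111) on the plus strand of chromosome 2 from 90912735 to 90946101, and *Runx1* (ENSMUSG00000022952) on the minus strand of chromosome 16 from 92398354 to 92623037.

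*Cebpd* was the most abundant of the 8 factors in WT and the only one at least 2-fold lower in any mutant library. It had 29.8 FPKM in WT from 2259 fragments, 19.7 in *Dspp*+/- from 1739 and 11.8 in *Dspp*-/- from 986. The fold to WT was 0.660 (0.620 to 0.703) for *Dspp*+/- and 0.397 (0.368 to 0.428) for *Dspp*-/-. The order of the 3 libraries, WT above *Dspp*+/- above *Dspp*-/-, was seen for none of the other 7 factors. *Cebpd* (ENSMUSG00000071637) spans 15705150 to 15708895 on the plus strand of chromosome 16. Of its exon length, 15% overlaps *Spidr* on the other strand, and *Spidr* had 1.41, 1.83 and 1.67 FPKM in WT, *Dspp*+/- and *Dspp*-/-, far under the level of *Cebpd*.

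On the log2(FPKM + 1) scale, 3 of the 8 factors (*Cebpe*, *Myb* and *Irf8*) were at least 2-fold higher in *Dspp*+/- than in WT, where 4.88% of all genes compared were, and 0 were at least 2-fold lower, against 2.86% of all genes. In *Dspp*-/-, 2 factors (*Cebpe* and *Myb*) were at least 2-fold higher against 4.05% of all genes, and 1 factor (*Cebpd*) was at least 2-fold lower against 1.37%. The median log2 ratio of the 8 factors was 0.34 in *Dspp*+/- and 0.11 in *Dspp*-/-, beside 0.058 and 0.0070 for all genes compared. The comparisons share the WT library.

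**Figure D2:**
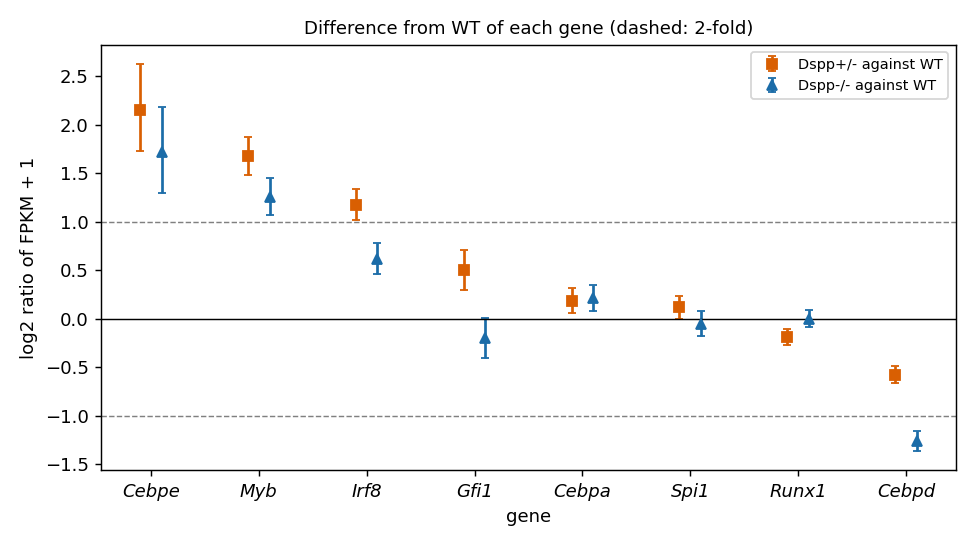
Log2 ratio of FPKM + 1 to WT for each of the 8 factors in Dspp+/- (squares) and Dspp-/- (triangles), with bars for the 95% counting interval and dashed lines at 2-fold. Cebpe and Myb lie above the upper line in both libraries, Irf8 in Dspp+/-, and Cebpd lies below the lower line in Dspp-/-.

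The levels of the 8 factors were more alike in the mutant libraries than in WT. In WT the highest factor was 30.1 times the lowest, against 3.87 times in *Dspp*+/- and 5.87 times in *Dspp*-/-. The order in WT was *Cebpd*, *Spi1*, *Cebpa*, *Runx1*, *Gfi1*, *Irf8*, *Cebpe* and *Myb*, and only the counting intervals of *Irf8* and *Cebpe* overlapped among neighbours. In *Dspp*+/- the order was *Cebpd*, *Spi1*, *Cebpa*, *Cebpe*, *Irf8*, *Runx1*, *Myb* and *Gfi1*, where the first 3 overlapped with their neighbours, as did the last 4. *Cebpa* and *Spi1* led in *Dspp*-/-, where they did not differ beyond counting error, followed by *Cebpd*, *Cebpe*, *Runx1*, *Irf8*, *Myb* and *Gfi1*. There the intervals of *Cebpe* and *Runx1* overlapped, as did those of *Irf8* and *Myb*.

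Ratios of pairs of factors within a library do not depend on how the libraries are scaled. The level of *Cebpe* per level of *Cebpa*, a late against an early C/EBP gene of granulocytes, was 0.119 (0.0847 to 0.163) in WT, 0.682 (0.599 to 0.775) in *Dspp*+/- and 0.478 (0.410 to 0.555) in *Dspp*-/-. Between *Myb* and *Runx1* the ratio was 0.146 (0.124 to 0.170) in WT, 0.920 (0.852 to 0.993) in *Dspp*+/- and 0.550 (0.505 to 0.600) in *Dspp*-/-. *Irf8* per *Spi1*, which act together on DNA, was 0.135 (0.118 to 0.154) in WT, 0.351 (0.322 to 0.382) in *Dspp*+/- and 0.249 (0.224 to 0.276) in *Dspp*-/-. For these 3 pairs the ratio was lowest in WT and highest in *Dspp*+/-, and no interval overlapped another. Each pair sets a factor higher in both mutant libraries over one that stayed near WT. The shared order thus follows from the levels given above and is not a separate result. The ratio of *Cebpd* to *Cebpa* went the other way, from 2.17 (2.0 to 2.36) in WT to 1.25 (1.15 to 1.35) in *Dspp*+/- and 0.737 (0.673 to 0.806) in *Dspp*-/-. *Gfi1* per *Cebpe* was 2.02 (1.44 to 2.90) in WT, 0.472 (0.406 to 0.550) in *Dspp*+/- and 0.356 (0.292 to 0.435) in *Dspp*-/-.

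Both mutant libraries were also set against each other. For *Dspp*-/- against *Dspp*+/-, 0 of the 8 factors were at least 2-fold higher or lower on the log2(FPKM + 1) scale, where 0.852% of all genes compared were higher and 0.798% lower. Within that threshold, *Cebpd*, *Cebpe*, *Gfi1*, *Spi1*, *Irf8* and *Myb* were lower in *Dspp*-/-, with intervals of the fold under 1. Their folds ran from 0.539 for *Gfi1* to 0.884 (0.810 to 0.964) for *Spi1*, with 0.602 (0.556 to 0.651) for *Cebpd*, 0.627 (0.566 to 0.693) for *Irf8*, 0.698 (0.636 to 0.767) for *Myb* and 0.714 (0.597 to 0.853) for *Cebpe*. *Runx1* was higher in *Dspp*-/-, with a fold of 1.17 (1.09 to 1.25), and the interval of *Cebpa* contains 1. Of all 13026 genes compared, 7207 were lower in *Dspp*-/- than in *Dspp*+/-, so most genes leaned this way too. The median log2 ratio of the 8 factors was -0.43, beside -0.037 for all genes compared. These 8 directions were the same under each scaling. That says little, because each scaling divided both mutant libraries by similar factors, such as 1.185 and 1.176 with housekeeping genes. A pseudocount or a filter cannot turn the direction of a gene.

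The promoters of 5 of the 8 genes were found in a RefSeq table on build GRCm38.p6 (250 bases before and 50 after a transcription start). They were searched on both strands for short core motifs that these factors are known to bind, since the factors act on one another's genes. The letters searched were TTGCNNAA for C/EBP, GAGGAA for PU.1, TGTGGT for RUNX, AACNGT for MYB, GAAANNGAA for IRF and AAATCA for GFI1. Of 32851 promoters in the table, 10.8%, 28.3%, 16.8%, 26.1%, 8.56% and 14.0% held at least 1 match, in the same order. The most upstream promoter is printed for *Myb* and *Irf8*, which were higher in the mutant libraries, for *Gfi1*, which differed most between them, and for *Runx1*, which stayed near WT. They run 5′ to 3′ on the strand of the gene, with matches in capitals.
Myb (chr10:21160935-21161234, minus strand): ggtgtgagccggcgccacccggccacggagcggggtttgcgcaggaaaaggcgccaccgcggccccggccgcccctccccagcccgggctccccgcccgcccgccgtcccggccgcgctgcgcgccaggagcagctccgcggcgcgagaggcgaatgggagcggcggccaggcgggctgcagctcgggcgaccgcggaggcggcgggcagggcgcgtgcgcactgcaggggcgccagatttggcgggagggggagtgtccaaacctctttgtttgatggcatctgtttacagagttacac
Irf8 (chr8:120736108-120736407, plus strand): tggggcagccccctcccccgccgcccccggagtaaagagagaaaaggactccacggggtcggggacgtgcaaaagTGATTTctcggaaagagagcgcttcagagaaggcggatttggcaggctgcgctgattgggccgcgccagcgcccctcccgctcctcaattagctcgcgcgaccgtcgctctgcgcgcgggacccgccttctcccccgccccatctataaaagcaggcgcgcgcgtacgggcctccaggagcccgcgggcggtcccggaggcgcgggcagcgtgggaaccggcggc
Gfi1 (chr5:107725756-107726055, minus strand): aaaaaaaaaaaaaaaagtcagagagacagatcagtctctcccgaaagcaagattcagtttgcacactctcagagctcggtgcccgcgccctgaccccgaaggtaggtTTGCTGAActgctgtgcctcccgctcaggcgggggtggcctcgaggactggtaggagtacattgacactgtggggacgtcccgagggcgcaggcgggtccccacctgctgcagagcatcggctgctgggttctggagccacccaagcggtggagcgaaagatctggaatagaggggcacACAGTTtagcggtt
Runx1 (chr16:92826025-92826324, minus strand): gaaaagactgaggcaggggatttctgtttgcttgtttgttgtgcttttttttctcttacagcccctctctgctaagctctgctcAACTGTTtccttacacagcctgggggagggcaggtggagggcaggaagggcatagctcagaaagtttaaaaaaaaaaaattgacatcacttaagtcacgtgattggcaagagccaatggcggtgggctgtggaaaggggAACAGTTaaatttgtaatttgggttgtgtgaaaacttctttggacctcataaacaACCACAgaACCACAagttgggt
The window of *Runx1* held MYB letters at 2 places, where a match on each strand overlaps, and RUNX letters at 2 places. That of *Gfi1* held 1 C/EBP and 1 MYB match, and that of *Irf8* held 1 GFI1 match, as did its second promoter. The second promoter of *Runx1* held 1 PU.1 match and that of *Gfi1* none. No match was found for *Myb*, nor for *Cebpa*, whose window is not printed. A match describes letters in a window and is not a measured binding site.

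The closest relatives of the factors were read from a list of 18 family members, of which 15 were compared. In *Dspp*+/-, 4 of them were at least 2-fold higher and 0 lower, with a median log2 ratio of 0.40, and in *Dspp*-/- 3 were higher and 0 lower, with a median of 0.059 that turned negative with housekeeping scaling and with a minimum mean of 5 FPKM. *Gfi1b*, the erythroid and megakaryocyte relative of *Gfi1*, had 8 fragments in WT and 0.216, 3.68 and 2.01 FPKM in WT, *Dspp*+/- and *Dspp*-/-. *Spib*, a B cell and plasmacytoid dendritic cell relative of *Spi1*, had 5.15, 18.6 and 13.1 FPKM, and *Irf4*, a lymphoid relative of *Irf8*, had 1.20, 4.08 and 3.85. *Mybl2*, a relative of *Myb* used by dividing cells in general, had 0.501, 2.78 and 1.45 FPKM. These 4 relatives, the ones past 2-fold in *Dspp*+/-, followed the order of *Irf8* and *Myb*, with *Dspp*+/- highest and WT lowest, although the fold of *Irf4* between the mutant libraries, 0.944 (0.826 to 1.08), was within counting error.

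Over the whole list, 9 of the 15 compared relatives had this order and 13 were highest in *Dspp*+/-. The exceptions to the second were *Runx2* and *Runx3*. *Runx2*, the osteoblast relative of *Runx1*, had 17.7 FPKM in WT against 9.90 in *Dspp*+/- and 13.8 in *Dspp*-/-, and *Runx3* had 6.89, 4.11 and 5.14. *Cebpb*, the most abundant gene of the C/EBP family here, had 63.4, 85.9 and 51.5 FPKM. The values of *Gfi1* and *Spi1* had this order too, but their levels in WT and *Dspp*-/- did not differ beyond counting error. Of 9 cofactors, 8 were compared and 0 passed 2-fold in either library. Among all genes, 4.88% were at least 2-fold higher in *Dspp*+/- and 4.05% in *Dspp*-/-, with 2.86% and 1.37% lower. The count of 0 is thus near the background. The median log2 ratio of the cofactors was 0.11 in *Dspp*+/- and 0.19 in *Dspp*-/-, and both medians turned negative with housekeeping scaling. The list includes *Cbfb*, the partner of *Runx1*, and *Kdm1a*, a demethylase recruited by *Gfi1*. *Cbfb* had 38.2, 29.1 and 39.6 FPKM in WT, *Dspp*+/- and *Dspp*-/-, and *Kdm1a* had 10.5, 8.25 and 9.87.

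Factors of stem and progenitor cells gave a divided picture. Of 12 such genes 9 were compared, and 3 were at least 2-fold higher in *Dspp*+/- and 1 in *Dspp*-/-, with 0 lower and medians of 0.31 and 0.34. *Tal1*, *Lyl1* and *Lmo2*, which work in 1 complex in blood progenitors and red cell precursors, had 1.24, 4.01 and 7.78 FPKM in WT and 7.19, 12.1 and 17.7 in *Dspp*+/-. The *Dspp*-/- library had 5.24, 7.34 and 13.2 FPKM of them. *Gata2*, needed by stem cells and mast cells, had 4.26 FPKM in WT against 4.74 in *Dspp*+/- and 2.86 in *Dspp*-/-. *Hoxa9*, a stem cell gene, had 2 fragments in WT and 19 and 7 in *Dspp*+/- and *Dspp*-/-, and *Hoxa10* had 0, 2 and 1, at or under the floor of 3 fragments in each library.

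The receptors for myeloid growth factors are in part target genes of *Cebpa* and *Spi1*. Of 10 receptors 9 were compared, with medians of 0.52 in *Dspp*+/- and 0.47 in *Dspp*-/-. On the log2(FPKM + 1) scale 1, *Csf3r*, was at least 2-fold higher in each mutant library, with 0 lower. *Csf3r*, the G-CSF receptor of neutrophils, had 4.24 FPKM in WT against 28.8 in *Dspp*+/- and 22.5 in *Dspp*-/-. *Csf1r*, the M-CSF receptor of monocytes, macrophages and osteoclast precursors, was at its highest in WT, with 43.2, 25.1 and 33.2 FPKM. *Kit*, the stem cell factor receptor of progenitors and mast cells, had 0.959, 2.41 and 1.80 FPKM. In *Dspp*+/- the fold of FPKM was 2.51 (2.11 to 3.00) for *Kit* and 2.01 (1.78 to 2.27) for *Csf2ra*. Their log2 ratios of FPKM + 1 were 0.80 and 0.91, under the threshold.

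Genes of neutrophil granules and of mature neutrophils, which the factors are known to switch on stage by stage, were higher in both mutant libraries but ordered them differently. Of 7 primary granule genes, made in promyelocytes, 6 were at least 2-fold higher in *Dspp*+/- and 6 in *Dspp*-/-, with medians of 4.10 and 2.35. Of 10 secondary granule genes all 10 were at least 2-fold higher in each library, with medians of 1.86 and 2.22. The 8 genes of mature neutrophils were all at least 2-fold higher too, with medians of 1.95 and 2.49. Against *Dspp*+/-, 5 of the 7 primary granule genes were at least 2-fold lower in *Dspp*-/-, and the median was -1.15. The same comparison gave a median of 0.29 for secondary granule genes and 0.60 for those of mature neutrophils, with 0 genes past 2-fold in either list. *Elane*, the neutrophil elastase gene, had 4.77 FPKM in WT against 175 in *Dspp*+/- and 78.3 in *Dspp*-/-. *Ctsc*, a protease gene that activates granule enzymes and that other cells use too, had 10.3, 10.6 and 12.8 FPKM and was the 1 primary granule gene near WT. *S100a9*, the most abundant of the mature neutrophil genes in WT, had 232, 916 and 1339 FPKM. Of the 8 factors, 6 (*Cebpd*, *Cebpe*, *Gfi1*, *Spi1*, *Irf8* and *Myb*) were thus lower in *Dspp*-/- than in *Dspp*+/-. So were 6 of the 7 primary granule genes. By contrast, 8 of the 10 secondary granule genes and 7 of the 8 genes of mature neutrophils were higher. Other lists leaned lower too, with 5 of 5 erythroid and megakaryocyte factors, 7 of 8 erythroid, 6 of 7 B cell and 7 of 9 progenitor genes. Of all 13026 genes compared 7207 were lower, while 7 of 8 cofactors and all 8 osteoblast genes were higher.

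**Figure D3:**
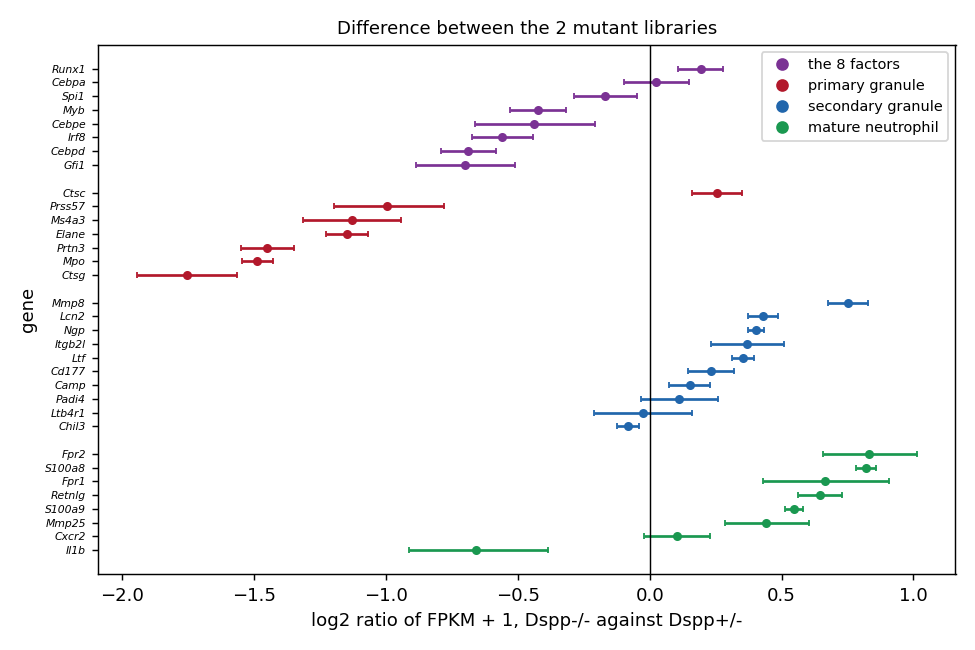
Log2 ratio of FPKM + 1 in Dspp-/- against Dspp+/- for the 8 factors, 7 primary granule, 10 secondary granule and 8 mature neutrophil genes, 1 point per gene with its 95% counting interval. Of the primary granule genes, 6 lie left of 0, and 8 of 10 secondary granule and 7 of 8 mature neutrophil genes lie right of it.

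Genes of monocytes and macrophages differed less. Of 10 monocyte and dendritic cell genes 7 were compared, with medians of 0.88 in *Dspp*+/- and 0.72 in *Dspp*-/-. On the log2(FPKM + 1) scale 2 of them were at least 2-fold higher in each mutant library. *Ly6c2*, of inflammatory monocytes, had 1.97 FPKM in WT against 31.9 in *Dspp*+/- and 22.7 in *Dspp*-/-, while *Cx3cr1*, of patrolling monocytes and macrophages, had 4.36, 4.11 and 4.39. Of 9 macrophage genes in the table, 0 passed 2-fold, and the medians were 0.13 and -0.073. Among all genes compared, 4.88% and 4.05% were at least 2-fold higher and 2.86% and 1.37% lower. A count of 0 in this list or the next is thus near the background. The macrophage median turned to -0.10 in *Dspp*+/- with housekeeping scaling and to 0.032 in *Dspp*-/- when mitochondrial genes were left out of the scale. A list of 10 transcription factors of monocytes and macrophages had 9 genes compared and 0 past 2-fold, with medians of -0.26 and 0.021, the second of which turned negative with housekeeping scaling, a minimum mean of 5 FPKM or no filter. Among them *Klf4* had 32.2, 26.8 and 21.3 FPKM in WT, *Dspp*+/- and *Dspp*-/-, the same order as *Cebpd*.

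**Figure D4:**
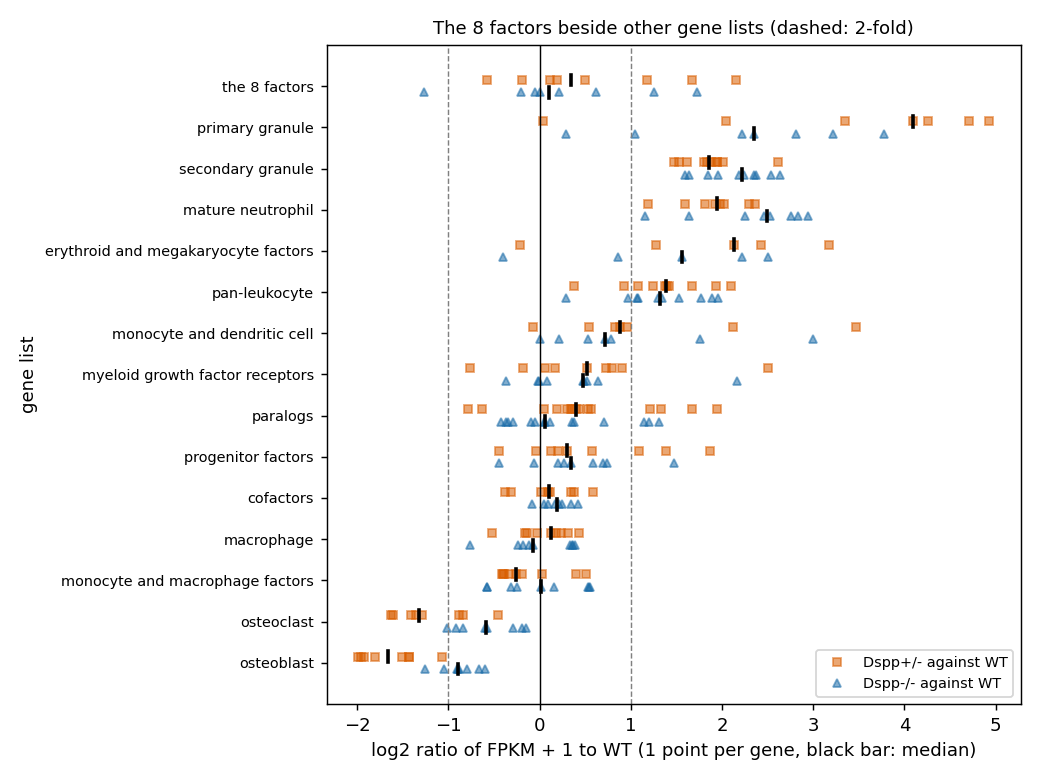
Log2 ratio of FPKM + 1 to WT for the 8 factors and 14 other gene lists, 1 point per gene for Dspp+/- (squares) and Dspp-/- (triangles), with black bars at the medians and dashed lines at 2-fold. The 8 factors spread from -1.26 to 2.16, while all genes of the secondary granule list lie above 1 in both libraries.

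Most markers of other blood cells moved with *Cebpe*, *Myb* and *Irf8*, and their part in the result was not tested. All 10 genes shared by white blood cells were higher in each mutant library, 8 of them at least 2-fold, with medians of 1.39 in *Dspp*+/- and 1.32 in *Dspp*-/- and a summed level of 113 FPKM in WT against 280 in *Dspp*+/- and 273 in *Dspp*-/-. All 8 erythroid genes and all 6 platelet genes were at least 2-fold higher in each library. The erythroid medians were 2.32 and 2.13, and the platelet medians 1.83 and 1.67. Of 6 erythroid and megakaryocyte transcription factors 5 were compared, and 4 and 3 were at least 2-fold higher, with medians of 2.13 and 1.56. Of 8 B cell genes 7 were compared, and 5 and 4 were at least 2-fold higher, with medians of 1.36 and 1.09. *Vpreb1*, of the early B cell receptor, had 1.40, 0.565 and 1.46 FPKM in WT, *Dspp*+/- and *Dspp*-/-, from 34, 16 and 39 fragments. Of 10 lymphoid transcription factors 7 were compared, and 3 and 2 were higher, with medians of 0.43 and 0.57. Of 7 T and NK cell genes 2 were compared, and their medians of 1.81 and 1.06 lie between unlike values. *Nkg7*, with 8 fragments in WT, had log2 ratios of 3.30 and 2.17, and *Cd4* had 0.31 and -0.044. *Cd3e* and *Cd3g* had 2 and 1 fragments in WT. All 8 cell cycle genes were at least 2-fold higher in *Dspp*+/- and 7 in *Dspp*-/-, with medians of 1.44 and 1.18.

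When the libraries were scaled to the geometric mean of the 10 genes of white blood cells, which was 2.91 times the WT level in *Dspp*+/- and 2.84 times in *Dspp*-/-, 0 of the 8 factors were at least 2-fold higher than WT. Only 0.637% of all genes compared were in *Dspp*+/- and 0.53% in *Dspp*-/-, so this count is near the background. *Cebpe* and *Myb* kept a positive log2 ratio, with 0.83 and 0.51 in *Dspp*+/- and 0.49 and 0.22 in *Dspp*-/-. *Irf8* was at -0.028 in *Dspp*+/- and -0.43 in *Dspp*-/-. On this scale 4 factors in *Dspp*+/- and 5 in *Dspp*-/- were at least 2-fold lower than WT, where 58.0% and 59.7% of all genes compared were, so these counts are near the background. *Cebpd* was at -1.99 and -2.58, *Spi1* at -1.29 and -1.41, *Runx1* at -1.38 and -1.20, *Cebpa* at -1.20 and -1.15, and *Gfi1* at -0.65 and -1.13. The median of all genes compared stood at -1.08 in *Dspp*+/- and -1.10 in *Dspp*-/- on this scale. The medians of the paralogs, cofactors, progenitor factors, receptors, lymphoid factors, and monocyte and dendritic cell genes were negative against WT on this scale in both mutant libraries, and that of B cell genes in *Dspp*-/-. Macrophages also express genes of this scale, such as *Laptm5*.

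Markers of the tissue of the condyle itself were lower in the mutant libraries, as a measured fact beside the flat values of *Spi1*, *Runx1* and *Cebpa*. All 8 osteoblast genes were at least 2-fold lower in *Dspp*+/- and 2 in *Dspp*-/-, with medians of -1.66 and -0.89. Among the 8 osteoclast genes, 5 and 1 were at least 2-fold lower, with medians of -1.32 and -0.59. The summed level of the osteoclast list, whose cells depend on PU.1, was 1731 FPKM in WT against 583 in *Dspp*+/- and 968 in *Dspp*-/-. Of 7 chondrocyte genes 6 were compared and 4 were at least 2-fold lower in each library, with medians of -2.50 and -1.03. The 6 endothelial genes had medians of 0.11 and 0.17, negative with housekeeping scaling, and 0 past 2-fold, a count near the background. Of 5 skeletal muscle genes 1 (*Myh4*) was at least 2-fold lower in *Dspp*+/- and 0 in *Dspp*-/-, with medians of 0.42 and -0.15. The markers of bone and cartilage were thus present in every library, together with those of skeletal muscle.

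Among 193 compared genes (those of these lists, 8 housekeeping genes used for scaling and the 8 factors themselves), the nearest other gene to each factor was found by the distance between pairs of log2 ratios to WT, which rest on 3 libraries and describe only this pattern. The nearest to *Cebpe* was *Ccr2*, the chemokine receptor of inflammatory monocytes, at a distance of 0.0521, followed by the platelet gene *Gp5*. *Cd79b*, of the B cell receptor, and *Spib* were nearest to *Myb*, and *Lmo2* and *Mybl2* to *Irf8*. For *Cebpd* the nearest was *Comp*, a matrix gene of cartilage and tendon, at 0.241, and then *C1qa* at 0.666, farther than the nearest gene of any of the other 7 factors. *Gfi1* was nearest to *Tnnt3* and *Cebpb*, *Spi1* to *Pgk1* and *Csf2rb2*, *Runx1* to *Il6st* and *Cd14*, and *Cebpa* to *Fli1* and *Ywhaz*.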

How the data were processed

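RNA of mandibular condyles of 3 genotypes was sequenced from poly(A)-selected libraries as pairs of 150 bases, with 1 library per genotype. The authors deposited a table of 26970 genes in a unit it does not name, read here as FPKM because the values times merged exon lengths (GENCODE M21) came within 0.05 of whole fragments for 98.6% of genes under 100 fragments in WT. The submitters' processing notes list FastQC 0.11.5, HISAT2 2.1.0, StringTie 1.3.3b and DESeq 1.28.0, and name a human build. The build of the table's positions is not given in the sources used here, and only 589 genes matched GENCODE M21 (GRCm38) in both start and end. Whether the counting used strand is also not given.

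The fragments recovered were used for 95% Clopper-Pearson intervals and a floor of 3 fragments. Log2 ratios were of FPKM + 1, for genes averaging 1 FPKM or more. No test between genotypes can be made with 1 library each, so no p-value is given. Recovery of depth, fragments and folds was tested on simulated data. FPKM is not adjusted for composition.

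The 8 factors, 23 gene lists, 8 housekeeping genes for scaling, motifs and 12 processing alternatives were chosen with earlier results of these data known. The lists are paralogs, cofactors, progenitor, monocyte and macrophage, erythroid and megakaryocyte, and lymphoid factors, myeloid growth factor receptors, primary granule, secondary granule, mature neutrophil, monocyte and dendritic cell, macrophage, pan-leukocyte, B cell, T and NK cell, erythroid, platelet, osteoblast, osteoclast, chondrocyte, endothelial, skeletal muscle and cell cycle genes. All 8 factors were named, and from a list any gene of the paralogs, cofactors, progenitor, monocyte and macrophage factors and receptors. From the other lists the gene highest in WT, those with the largest and smallest log2 ratio in *Dspp*+/-, those at or under the floor, and the 2 listed genes nearest to each factor could be named. Of the listed genes, 1 was not analysed here. Scripts ran in Python 3.11.15 with scipy 1.17.1, pandas 2.3.3, numpy 2.4.6 and, for plots, matplotlib 3.10.9.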

Additional observations from a re-analysis of the deposited data

How the results depend on the processing

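The median log2 ratio of the 8 factors in *Dspp*+/- against WT, 0.34, became 0.13 with housekeeping scaling, 0.12 over the 5 factors averaging 5 FPKM or more, and -0.92 with scaling to white blood cell genes. In *Dspp*-/- against WT, 0.11 became -0.10 with housekeeping scaling, 0.0013 with that filter and -1.14 with white blood cell scaling, and in *Dspp*-/- against *Dspp*+/- -0.43 became -0.17 with that filter. The count of factors at least 2-fold higher in *Dspp*+/- went from 3 to 1 with that filter, a pseudocount of 5 or a 4-fold threshold, to 2 with housekeeping scaling, which takes *Irf8* to 0.97, and to 0 with white blood cell scaling. Beside these counts, the share of all genes went from 4.88% to 3.94%, 1.42%, 0.952%, 3.27% and 0.637%, in the order named. For *Dspp*-/- the count went from 2 to 1 with that filter and to 0 with that pseudocount, 4-fold threshold or white blood cell scaling, and to 3 at 1.5-fold, with *Irf8*. There the share of all genes went from 4.05% to 3.2%, 1.04%, 0.791%, 0.53% and 8.84%, again in the order named. The count at least 2-fold lower went with white blood cell scaling from 0 to 4 in *Dspp*+/- and from 1 to 5 in *Dspp*-/-, beside 58.0% and 59.7% of all genes. It was 0 in *Dspp*-/- at 4-fold, beside 0.0461% of all genes. Between the mutant libraries it was 2 at 1.5-fold, beside 4.32%. The higher filter leaves out *Gfi1*, *Irf8* and *Myb*, and a larger pseudocount shrinks ratios of low genes.

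White blood cell scaling turned *Irf8* to -0.028 in *Dspp*+/- and -0.43 in *Dspp*-/-, *Gfi1* in *Dspp*+/- to -0.65, *Cebpa* to -1.20 and -1.15, *Spi1* in *Dspp*+/- to -1.29 and *Runx1* in *Dspp*-/- to -1.20. It also turned negative the medians of paralogs, cofactors, progenitor and lymphoid factors, receptors, monocyte and dendritic cell genes and endothelial genes in both libraries, of macrophage and muscle genes in *Dspp*+/-, and in *Dspp*-/- of monocyte and macrophage factors and of B cell genes, the last to -0.11. It moved the median of all genes compared to -1.08 in *Dspp*+/- and -1.10 in *Dspp*-/-, and housekeeping scaling moved it to -0.14 and -0.18, so a factor at these values is level with most genes. Of 207 other values for single factors, 176 stayed within their counting interval and 31 moved. The 176 include the values under other filters, which cannot differ from the main value of a single factor. No paired analysis was possible because each genotype has 1 library. The fewest fragments behind a factor were the 41 of *Cebpe* in WT, and the spread between mice is unknown.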
